A study of Mus musculus with 17 samples.

Results

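The genes described here are 10 members of interleukin-1, TNF and HMGB1 signalling, namely Il1a, Il1b, Il18, Tnf, Ccl2, Tgfb1, Hmgb1, Il1r1, Tnfrsf1a and Tlr4. They were chosen by name as mediators and receptors of this kind of inflammation, and are 10 of the 55450 genes counted in the hippocampus libraries. Of the 10 genes, 9 had enough reads for a test, among 17615 genes tested in all, and Il1b did not.

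Interleukin-1 and TNF are cytokines released mainly by microglia and astrocytes after an insult, and their receptors signal to the transcription factor NF-kB. HMGB1 is a nuclear protein that bends DNA and, once it leaves a stressed cell, acts as an alarm signal on TLR4. IL-1 receptor and TLR4 signalling is known for its part in the excitability of the hippocampus in models of temporal lobe epilepsy.

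RNA-seq was performed on hippocampi of adult C57BL/6J mice, which the study operated on at 2 to 3 months of age, with 1 library for each of 17 samples. Epileptic mice had received kainic acid, an agonist of glutamate receptors, in the right amygdala to set off status epilepticus, and adeno-associated viruses in the right ventral hippocampus 1 week later. The viruses carried nuclease-dead Cas9 joined to the activator VP64 (dCas9A) under a doxycycline-inducible promoter, and a guide RNA with a transactivator driven by the Camk2a promoter, which biases dCas9A to excitatory neurons. Baseline tests of behaviour followed 2 weeks after the viruses. Doxycycline was then given in food for 2 weeks, and hippocampi were collected at the end of the experiment. Sham controls (n = 5, Ctrl-dCas9A in the study and control sgLacZ here) and 1 epileptic group (n = 6, epileptic sgLacZ here) carried a guide against a bacterial gene. The other epileptic group (n = 6, Kcna1-dCas9A in the study and epileptic sgKcna1 here) carried a guide to the promoter of Kcna1, a potassium channel gene. Every group thus received virus and dCas9A, and sham mice given sgKcna1 were not analysed here. The labels do not say which hippocampus was taken or give the sex of the mice, of which the study used both.

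The libraries held 11839240 to 28311328 reads in genes. Values are CPM (reads of a gene scaled to a common effective library size), and 3 reads, taken as the floor, were worth 0.102 to 0.280 CPM. In epileptic sgKcna1 replicate 12, the shallowest library, 41.5% of reads were unmapped, against 19.5% to 27.7% in controls, 11.0% to 24.1% in the epileptic sgLacZ group and 19.1% to 24.6% in the other 5 epileptic sgKcna1 libraries. Kcna1 itself had 38.2 ± 46.5 CPM (SD, n = 6) in the epileptic sgKcna1 group and 30.1 ± 14.5 CPM (SD, n = 6) in the epileptic sgLacZ group (log2 fold change 0.32, adjusted p = 0.706, edgeR). Xist and Y-linked reads placed 3 of 5, 2 of 6 and 4 of 6 libraries of the control sgLacZ, epileptic sgLacZ and epileptic sgKcna1 groups on the male side. In 6 libraries (2, 1 and 3 of these groups) more than 40 reads of both kinds were found. Whether these hold tissue of both sexes or carry-over of reads was not tested, and the sex covariate gave each of them 1 sex. Values that differed at an unadjusted p under 0.05 are also given for the other 11 libraries, or as a range over settings that includes them. The neuronal, astrocyte, microglial and oligodendrocyte markers of hippocampus had reads in every group.

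None of the 9 tested genes passed an adjusted p of 0.05 in any of the 3 comparisons (edgeR quasi-likelihood F test, Benjamini-Hochberg adjustment over all 17615 genes), and none did in the 11 libraries. With DESeq2, 2 of the 9 passed in the epileptic sgLacZ group against controls, as did 3686 of all 17615 tested genes. These are 22.2% of the genes that DESeq2 gave an adjusted p. With limma voom (with sample quality weights throughout) 3 of the 9 passed, as did 41.4% of tested genes. Neither tool called any of the 9 between the epileptic groups or in the epileptic sgKcna1 group against controls. Of genes with an adjusted p, 0.812% (DESeq2) and 0.0681% (limma voom) passed in the first comparison, and 0.222% and 0.403% in the second. In the epileptic sgLacZ group against controls, where 11.0% of all tested genes passed (7.26% higher and 3.76% lower), Tnf, Il18 and Hmgb1 were lower at an unadjusted p under 0.05. In the epileptic sgKcna1 group against the epileptic sgLacZ group, where 0% of genes passed, Tnf and Hmgb1 were higher and Il1r1 and Tlr4 lower at an unadjusted p under 0.05. In the epileptic sgKcna1 group against controls, where again 0% passed, only Il1r1 was lower by that measure. CPM values of the groups overlapped for all 10 genes in each comparison, as they did for all but 4.39%, 0.483% and 1.14% of the tested genes.

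**Figure D1:**
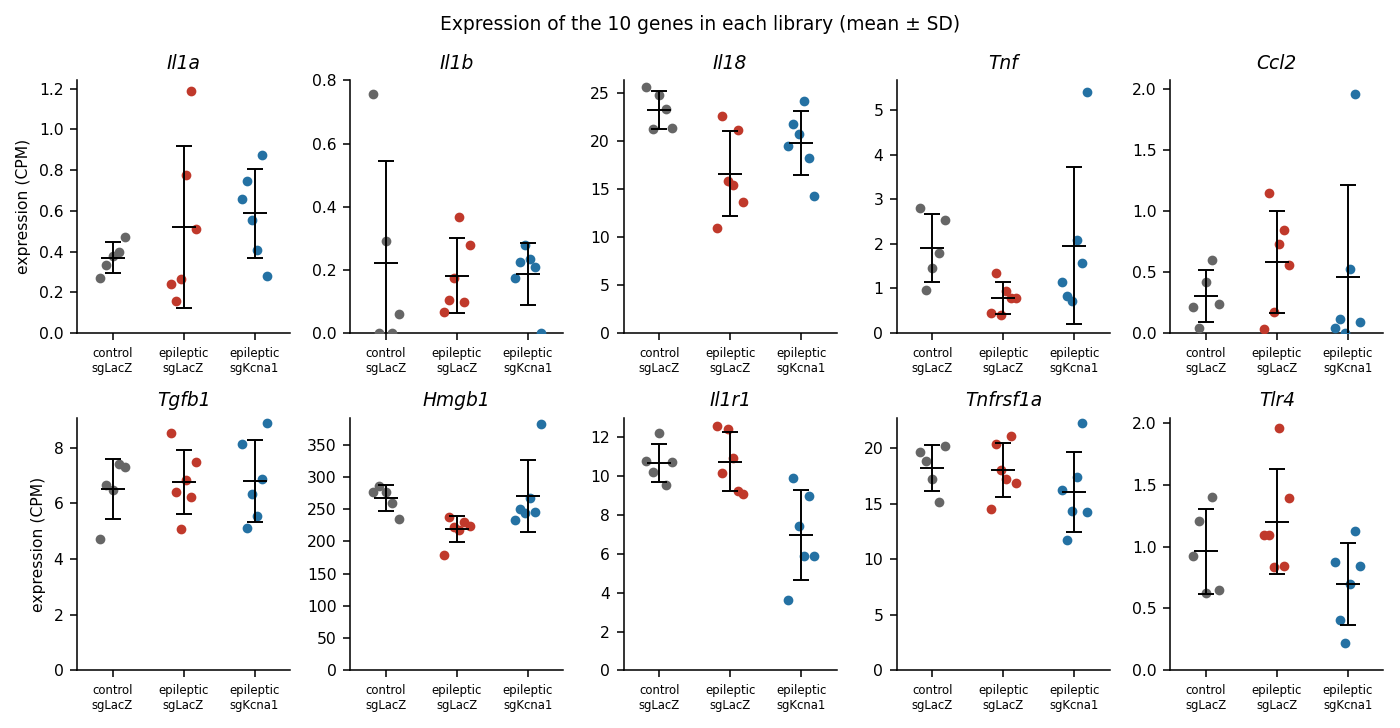
Expression of the 10 genes in CPM (vertical axes, linear and starting at 0) in each library of the control sgLacZ (n = 5), epileptic sgLacZ (n = 6) and epileptic sgKcna1 (n = 6) groups, with bars for the mean ± SD. Tnf and Hmgb1 have their highest value, 5.41 and 382 CPM, in the same epileptic sgKcna1 library, and most Il1r1 values of that group lie below those of the other groups.

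Compared per kilobase of transcript in controls, the levels ran in the order Hmgb1 (94.0 CPM per kb), Il18 (33.1), Tnfrsf1a (8.46), Tgfb1 (2.99), Il1r1 (2.21), Tnf (1.17), Ccl2 (0.372), Tlr4 (0.236), Il1a (0.188) and Il1b (0.164). Neighbours among the last 4 of these, Ccl2, Tlr4, Il1a and Il1b, differed by less than the larger SD of each pair. Il1a, Il1b and Ccl2 had no more than 9, 14 and 10 reads in any control library.

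The sequences before the transcription starts of a few ligand genes are shown because these genes span the range of levels. RefSeq (GRCm38.p6) listed promoters for 8 of the 10 genes, with none for Ccl2 and Tlr4. The windows are the 250 bases upstream of the start, and capitals mark matches on either strand to TATAAA (the element bound by TBP), CCAAT (bound by NF-Y) and GGGCGG (the GC box). The consensus of the kB element, the site of NF-kB, was searched too, and no match to it lies in the 4 windows shown. No base in them was shared by a pair of matches.
Il1b, chr2:129371140-129371389, minus strand: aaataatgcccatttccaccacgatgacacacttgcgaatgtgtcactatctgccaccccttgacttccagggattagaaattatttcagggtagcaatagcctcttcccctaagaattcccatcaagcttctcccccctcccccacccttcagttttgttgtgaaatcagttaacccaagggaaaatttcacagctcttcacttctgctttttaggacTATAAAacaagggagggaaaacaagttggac
Tnf, chr17:35202008-35202257, minus strand: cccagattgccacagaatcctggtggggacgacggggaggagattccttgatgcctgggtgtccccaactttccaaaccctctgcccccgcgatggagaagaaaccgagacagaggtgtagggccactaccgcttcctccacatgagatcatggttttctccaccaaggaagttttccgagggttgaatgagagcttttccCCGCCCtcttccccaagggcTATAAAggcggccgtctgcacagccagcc
Il18, chr9:50554450-50554699, plus strand: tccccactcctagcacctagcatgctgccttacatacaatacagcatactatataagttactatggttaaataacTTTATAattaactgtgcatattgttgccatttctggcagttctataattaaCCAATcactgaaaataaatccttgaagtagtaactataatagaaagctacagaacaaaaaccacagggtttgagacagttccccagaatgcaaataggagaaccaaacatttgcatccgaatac
Hmgb1, chr5:149053058-149053307, minus strand: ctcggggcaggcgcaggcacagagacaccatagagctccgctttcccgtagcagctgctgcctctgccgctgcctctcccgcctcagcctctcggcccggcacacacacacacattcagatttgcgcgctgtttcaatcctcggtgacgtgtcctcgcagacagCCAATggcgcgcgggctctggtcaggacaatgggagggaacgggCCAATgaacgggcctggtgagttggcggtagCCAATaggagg

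In the promoters of Il1b and Tnf, which had few reads, TATAAA stood 25 and 23 bases before the start on the same strand, and 26 bases before the start in that of Il1a. The start used for Il1b lies inside the gene coordinates given below (window from 129371140, gene to 129371164). So does that for Il1a (window from 129309973, gene to 129310186). A match to TATAAA was found in 12.4% of all 32851 windows of the table, to CCAAT in 33.8%, to GGGCGG in 32.7% and to the kB element in 7.25%. The Hmgb1 window shown held 3 CCAAT matches and no TATAAA, with 63.6% G and C, whereas the Il18 window held 1 CCAAT and 1 TATAAA on the opposite strand, 169 bases before the start, with 35.6% G and C. A second Hmgb1 window (chr5:149051617-149051866) held 4 GC boxes, no CCAAT and 78.8% G and C. The median over all windows was 52.4% G and C. The window of Tgfb1 held 5 GC boxes and 75.2% G and C. The kB element had a match in that window, at the same bases on both strands, and in 1 of the windows of Il1r1. Matches describe the letters only.

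Among the ligands, TNF, the cytokine that gives its family its name and acts on TNFR1, had the largest differences of the genes with an unadjusted p under 0.05. Tnf (chr17:35199367-35202007, GRCm38.p6) had 2.81, 0.957, 1.46, 1.80 and 2.53 CPM in the control libraries. In the epileptic sgLacZ group it ranged from 0.395 CPM over a median of 0.790 to 1.36 CPM, and in the epileptic sgKcna1 group from 0.722 over a median of 1.36 to 5.41 CPM. Of the 6 epileptic sgLacZ libraries, 5 lay below all controls, and the remaining library lay between the control values. These values rest on 9 to 58 reads per library.

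The log2 fold change of Tnf was -1.28 ± 0.48 (SE) in the epileptic sgLacZ group (n = 6) against controls (n = 5), with an adjusted p of 0.0764 in edgeR's quasi-likelihood test. This p was 0.0408 with DESeq2, 0.00955 with limma voom and 0.0380 with only these groups in the fit. The adjusted p was 0.217 with the share of unmapped reads as a covariate, which moved the log2 fold change to -0.80, and 0.128 in the 11 libraries. Against the epileptic sgLacZ group, Tnf in the epileptic sgKcna1 group gave 1.28 ± 0.47 (SE, adjusted p = 0.213, edgeR). Without replicate 12 of that group, the library at 5.41 CPM, the log2 fold change was 0.70 and the unadjusted p 0.0847, and in the 11 libraries it was 0.62. Over the settings other than leaving out 1 library, this log2 fold change ran from 0.47 to 1.38. Both comparisons share the 6 epileptic sgLacZ libraries. The epileptic sgKcna1 group against controls gave -0.0047 (95% interval -0.91 to 0.90).

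IL-18, a cytokine of the IL-1 family that caspase-1 cuts to its active form, came from a gene that was well above the floor. Il18 (chr9:50554700-50581841) had 25.6, 21.2, 24.8, 23.3 and 21.3 CPM in controls. It ranged from 11.0 over a median of 15.6 to 22.6 CPM in the epileptic sgLacZ group and from 14.3 over 20.1 to 24.2 CPM in the epileptic sgKcna1 group. Again 5 of 6 epileptic sgLacZ libraries lay below all controls.

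The log2 fold change of Il18 in the epileptic sgLacZ group against controls was -0.49 ± 0.17 (SE, adjusted p = 0.0582, edgeR). The adjusted p was 0.0284 with DESeq2, 0.000848 with limma voom, and between 0.0106 and 0.137 when each library was left out in turn. It was 0.0610 in the 11 libraries, with a log2 fold change of -0.61, and 0.115 with the share of unmapped reads as a covariate, with -0.47. Within the epileptic sgLacZ group Il18 was lowest in the library with the fewest unmapped reads (11.0 CPM at 11.0%) and highest in that with the most (22.6 CPM at 24.1%). Within the epileptic sgKcna1 group it was lowest in the library with the most unmapped reads (replicate 12, 14.3 CPM at 41.5%). The part of this share in the result was not tested beyond the covariate. The epileptic sgKcna1 group had a log2 fold change of 0.26 ± 0.16 (SE, adjusted p = 0.348, edgeR) against the epileptic sgLacZ group, or 0.16 without epileptic sgLacZ replicate 4, and -0.23 (95% interval -0.56 to 0.09) against controls.

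HMGB1 had the most abundant transcript of the 10 genes per kilobase. Hmgb1 (chr5:149046702-149053057) had 277, 286, 276, 259 and 235 CPM in controls. It ranged from 180 over a median of 223 to 238 CPM in the epileptic sgLacZ group and from 233 over 248 to 382 CPM in the epileptic sgKcna1 group. In the epileptic sgLacZ group 5 of 6 libraries lay below all controls, and in the epileptic sgKcna1 group 5 of 6 lay above all epileptic sgLacZ libraries.

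For Hmgb1 the log2 fold change was -0.29 ± 0.12 (SE, adjusted p = 0.0985, edgeR) in the epileptic sgLacZ group against controls and 0.30 ± 0.11 (SE, adjusted p = 0.214, edgeR) in the epileptic sgKcna1 group against the epileptic sgLacZ group. The first had an adjusted p of 0.00766 with limma voom, 0.0410 with only these groups in the fit and 0.0766 with DESeq2, and of 0.0514 in the 11 libraries (log2 fold change -0.37). With unmapped reads as a covariate both log2 fold changes moved, to -0.14 and 0.11. The second was 0.18 without replicate 12 and 0.22 in the 11 libraries. RefSeq names 12 pseudogenes after Hmgb1, and reads that map to several places were not counted, so its level is uncertain.

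**Figure D2:**
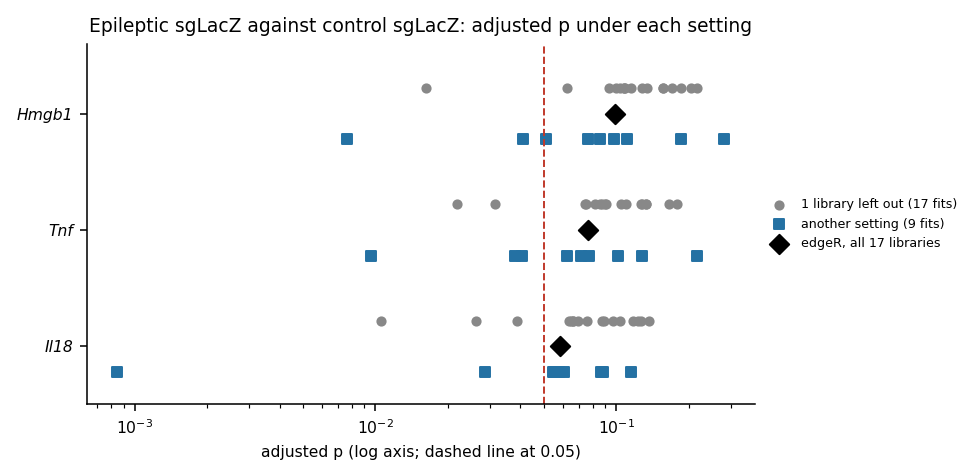
Adjusted p (horizontal log axis, dashed line at 0.05) of Il18, Tnf and Hmgb1 in the epileptic sgLacZ group against controls, for the edgeR fit of all 17 libraries (diamonds), 9 other settings (squares) and 17 fits that each leave out 1 library (circles). The edgeR values of 0.0582, 0.0764 and 0.0985 lie to the right of the line, and the values of other fits lie on both sides of it.

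IL-1α and IL-1β, the agonists of the IL-1 receptor, had very few reads. Il1a (chr2:129299609-129310186) had 0.271, 0.333, 0.376, 0.400 and 0.471 CPM in controls. It ranged from 0.157 over a median of 0.387 to 1.19 CPM in the epileptic sgLacZ group, and from 0.280 over 0.607 to 0.875 CPM in the epileptic sgKcna1 group. Of the epileptic sgLacZ libraries, 3 lay above and 3 below all controls. The log2 fold changes were 0.49 (95% interval -0.45 to 1.43) and 0.70 (-0.24 to 1.64) in the epileptic sgLacZ and epileptic sgKcna1 groups against controls, and 0.21 (-0.65 to 1.07) between the epileptic groups. The first was 0.080 without epileptic sgLacZ replicate 8, and the last ran from 0.034 to 0.62 with each library left out. Counts of Il1a on each strand added up to 1.654 times the unstranded count, the sign of an overlapping gene, so its values are uncertain.

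Il1b (chr2:129364569-129371164) had 0.758, 0, 0.293, 0 and 0.0589 CPM in controls. It ranged from 0.0681 over a median of 0.140 to 0.366 CPM in the epileptic sgLacZ group and from 0 over 0.216 to 0.278 CPM in the epileptic sgKcna1 group. More than 3 reads were found in 2 of 5, 3 of 6 and 5 of 6 libraries of these groups, and no library had more than 14 reads.  Without the filter on low counts its log2 fold changes were -0.26, 0.06 and -0.20 in the 3 comparisons (adjusted p = 0.920, 1 and 1, edgeR).

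CCL2, the chemokine that draws monocytes through CCR2, varied widely between libraries of a group. Ccl2 (chr11:82035577-82037452) had 0.216, 0.0416, 0.418, 0.600 and 0.236 CPM in controls. It ranged from 0.0341 over a median of 0.645 to 1.15 CPM in the epileptic sgLacZ group and from 0 over 0.103 to 1.96 CPM in the epileptic sgKcna1 group. Only 2 of 6 epileptic sgKcna1 libraries had more than 3 reads, and replicate 11 held 47. The log2 fold change was 0.94 (95% interval -0.91 to 2.79) in the epileptic sgLacZ group against controls. It was, for the epileptic sgKcna1 group, -0.26 (-1.93 to 1.40) against the epileptic sgLacZ group and 0.68 (-1.19 to 2.54) against controls, and -1.88 and -0.94 without replicate 11.

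TGF-β1 is a cytokine that restrains many immune responses and signals through SMAD proteins. Tgfb1 (chr7:25687002-25705077) had 4.71, 6.66, 6.48, 7.40 and 7.31 CPM in controls, with medians of 6.63 and 6.60 CPM in the epileptic sgLacZ and epileptic sgKcna1 groups. The ranges of these were 5.09 to 8.51 and 5.11 to 8.87 CPM. Its 95% intervals of the log2 fold change were -0.29 to 0.40 for the epileptic sgLacZ group against controls, -0.33 to 0.33 between the epileptic groups, and -0.29 to 0.41 for the epileptic sgKcna1 group against controls.

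Of the receptors, IL-1R1, through which both IL-1 agonists signal, was lower in the epileptic sgKcna1 group than in both other groups at an unadjusted p under 0.05. Il1r1 (chr1:40222480-40316201) had 10.8, 10.2, 12.2, 9.53 and 10.7 CPM in controls. It ranged from 9.10 over a median of 10.6 to 12.6 CPM in the epileptic sgLacZ group and from 3.65 over 6.66 to 9.93 CPM in the epileptic sgKcna1 group. In the last group 5 of 6 libraries lay below all controls, and 5 of 6 below all epileptic sgLacZ libraries.

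The log2 fold change of Il1r1 was -0.62 ± 0.19 (SE, unadjusted p = 0.00383, adjusted p = 0.213, edgeR) in the epileptic sgKcna1 group against the epileptic sgLacZ group. Against controls it was -0.61 ± 0.20 (SE, unadjusted p = 0.00569, adjusted p = 0.609, edgeR). An unadjusted p under 0.05 was found for 19.2% and 6.77% of all tested genes in these comparisons. Without replicate 1, the lowest library, the first was -0.49, and in the fits of the 11 libraries it was -0.51. Over the settings other than leaving out 1 library, the 11 libraries and the unmapped-read covariate included, the first ran from -0.64 to -0.49. The second ran from -0.62 to -0.51 over these settings. In the epileptic sgLacZ group against controls the interval of the log2 fold change ran from -0.38 to 0.39.

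TLR4, the receptor for bacterial lipopolysaccharide that also answers to HMGB1, had few reads. Tlr4 (chr4:66827551-66846581) had 0.920, 1.21, 0.627, 1.40 and 0.648 CPM in controls. It ranged from 0.834 over a median of 1.09 to 1.95 CPM in the epileptic sgLacZ group and from 0.222 over 0.769 to 1.12 CPM in the epileptic sgKcna1 group. The lowest 3 epileptic sgKcna1 libraries lay below all epileptic sgLacZ libraries. The log2 fold change between the epileptic groups was -0.79 ± 0.36 (SE, unadjusted p = 0.0437, adjusted p = 0.252, edgeR), and -1.52 in the 11 libraries. Against controls the epileptic sgLacZ group gave 0.33 (95% interval -0.41 to 1.06) and the epileptic sgKcna1 group -0.46 (-1.21 to 0.30). With each library left out these ran from 0.14 (without epileptic sgLacZ replicate 7) to 0.49 and from -0.66 to -0.28 (without epileptic sgKcna1 replicate 3), and the second was -1.05 in the 11 libraries.

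TNFR1, the receptor that carries most responses to soluble TNF, is encoded by Tnfrsf1a (chr6:125349723-125362483), which had 19.7, 18.9, 17.2, 15.2 and 20.2 CPM in controls. The epileptic sgLacZ libraries ranged from 14.6 over a median of 17.7 to 21.1 CPM and the epileptic sgKcna1 libraries from 11.8 over 15.3 to 22.2 CPM. The 3 groups overlapped over most of this range. Its 95% intervals were -0.30 to 0.27 for the epileptic sgLacZ group against controls, -0.44 to 0.11 between the epileptic groups and -0.47 to 0.10 for the epileptic sgKcna1 group against controls. The log2 fold change between the epileptic groups was -0.17, and -0.28 to -0.09 with each library left out.

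**Figure D3:**
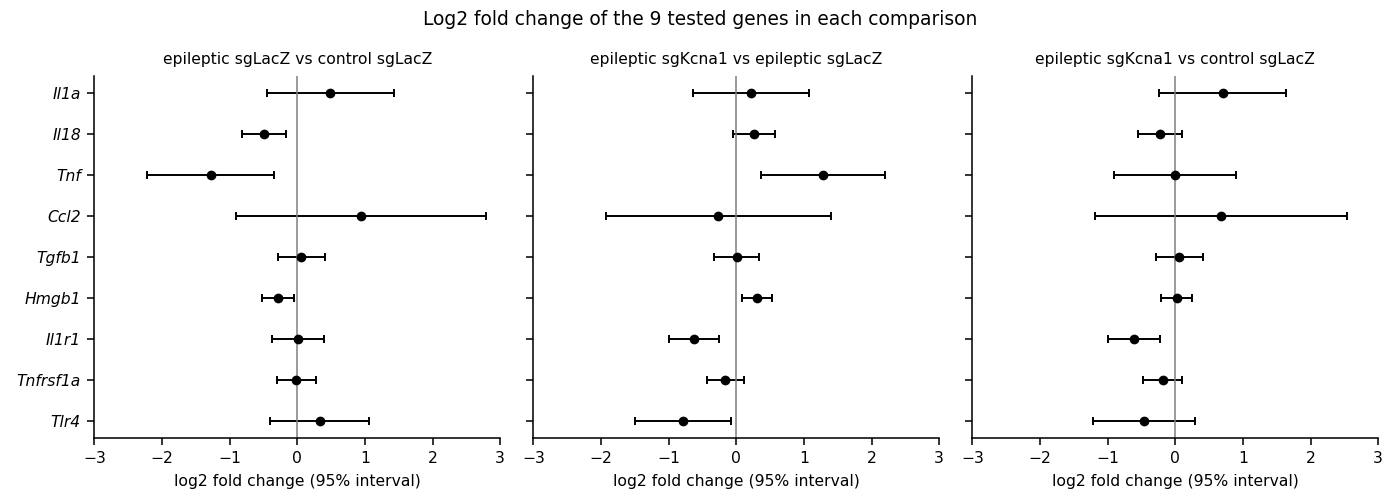
Log2 fold change (horizontal axis, points) with its 95% interval (bars) of the 9 tested genes in each of the 3 comparisons, from the edgeR fit. Before adjustment for 17615 genes, intervals of Il18, Tnf and Hmgb1 leave out 0 in the left panel. Those of Tnf, Hmgb1, Il1r1 and Tlr4 do so in the middle panel, and that of Il1r1 in the right panel.

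Against their background, 3 of 9 tested genes had an unadjusted p under 0.05 in the epileptic sgLacZ group against controls, where 34.7% of all tested genes did. All 3 were lower, as were 15.9% of tested genes, and none was higher, as were 18.8%. Between the epileptic groups 4 of 9 did, against 19.2%: 2 were higher (8.69% of tested genes) and 2 lower (10.5%). For the epileptic sgKcna1 group against controls 1 of 9 did, against 6.77%, and it was lower (2.48%, with 4.29% higher). The median log2 fold change of the 9 genes was 0.0070, 0.0039 and -0.0047 in these comparisons, beside 0.02, -0.01 and 0.02 over all tested genes. With unmapped reads as a covariate, 1 of 9 had an unadjusted p under 0.05 in each comparison (edgeR). So did 4073, 1324 and 3327 of the 17615 tested genes.

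Summed levels of cell markers are set beside these genes here, and no correlation between them was computed. The summed level of 10 blood and infiltrating leukocyte markers was 167 to 329 CPM in controls, 51.7 to 204 CPM in the epileptic sgLacZ group and 96.9 to 393 CPM in the epileptic sgKcna1 group. This list includes haemoglobin genes, so its sum does not tell blood left in the tissue from leukocytes. The highest value of this sum stood in epileptic sgKcna1 replicate 12, which also held the highest Tnf and Hmgb1, but the lowest Il18 and Il1b of its group. Its lowest value stood in epileptic sgLacZ replicate 4, which held the lowest Hmgb1 and Il18, while the lowest Tnf was in epileptic sgLacZ replicate 6. The 12 microglial markers summed to 500 to 550 CPM in controls, 413 to 737 CPM in the epileptic sgLacZ group and 547 to 681 CPM in the epileptic sgKcna1 group, and the 8 choroid plexus and ependymal markers to 1251 to 12594, 4456 to 11511 and 317 to 7881 CPM. The 6 oligodendrocyte markers summed to 6070 to 8707 CPM in controls, 4491 to 6714 CPM in the epileptic sgLacZ group and 2563 to 10211 CPM in the epileptic sgKcna1 group, again highest in replicate 12, as were the 8 endothelial and mural markers (365 CPM, against 216 to 320 CPM in the other libraries). The 8 astrocyte markers summed to 2472 to 2743, 2516 to 3238 and 2613 to 3172 CPM in the same order of groups. The 8 neuronal markers summed to 7232 to 7775, 6760 to 8972 and 6943 to 8333 CPM. In the epileptic sgLacZ group against controls, 2 of 8 astrocyte markers passed as higher (edgeR), as did 7.26% of tested genes. Another 2 astrocyte markers were lower at an unadjusted p under 0.05. Of the others, 1 of 12 microglial, 1 of 8 neuronal and 1 of 8 endothelial and mural markers passed as higher. Lower were 1 of 12 microglial and 1 of 8 tested blood and leukocyte markers, as were 3.76% of tested genes. No oligodendrocyte, choroid plexus or ependymal marker passed. None of the markers in these lists was at 0 in a whole group. Their part in the results was not tested. In bulk tissue, fewer cells of a type and less RNA per cell cannot be told apart.

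The other genes of these pathways were counted in 7 lists, here without the 10 genes above, and the number past the threshold in the epileptic sgLacZ group against controls is given beside the 11.0% of all tested genes. In the IL-1 and IL-18 family 0 of 10 tested genes passed, 0 of these with an unadjusted p under 0.05, and the median log2 fold change was 0.09. In TNF signalling 1 of 12 passed, with a median of 0.13. Among HMGB1, TLR4 and MyD88 genes 0 of 20 passed, 6 of these with an unadjusted p under 0.05, and in the NF-kB core 1 of 11. Of the chemokines 0 of 13 passed, 1 of these with an unadjusted p under 0.05. TGF-beta signalling had 3 of 16 and the inflammatory target genes 2 of 11. In both other comparisons none passed in any of the 7 lists with edgeR, nor did any other tested gene, while 143 and 39 genes in all passed with DESeq2.

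All 7 genes past the threshold rose, as did 65.9% of all tested genes past it. Rnf31, which encodes the catalytic subunit of the linear ubiquitin ligase that acts at TNFR1, had 23.5 ± 2.28 CPM (SD, n = 6) in the epileptic sgLacZ group and 17.2 ± 1.49 CPM (SD, n = 5) in controls (log2 fold change 0.45 ± 0.13 (SE), adjusted p = 0.0404, edgeR). Ikbkb, which encodes a kinase that releases NF-kB from its inhibitor, had 24.5 ± 3.55 and 16.7 ± 2.61 CPM (log2 fold change 0.55 ± 0.15 (SE), adjusted p = 0.0349, edgeR). The groups did not overlap for either gene, as was so for 4.39% of tested genes, and they did for the other genes past the threshold.

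In TGF-beta signalling, Smad3, a transcription factor that the receptors phosphorylate, had 64.4 ± 14.9 CPM in the epileptic sgLacZ group and 45.4 ± 3.89 in controls (log2 fold change 0.50, adjusted p = 0.0377, edgeR). Ski, which encodes a repressor of SMAD proteins, had 143 ± 37.6 and 101 ± 9.93 CPM (log2 fold change 0.49, adjusted p = 0.0424, edgeR). Ltbp3, which encodes a protein that binds latent TGF-β, had a log2 fold change of 1.06 (adjusted p = 0.0347, edgeR), and 0.42 with the counts of each strand added, since its reads are shared with an overlapping gene.

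Of the target genes, Socs3, an inhibitor of cytokine receptor signalling, had 2.35 ± 0.578 CPM in the epileptic sgLacZ group and 1.23 ± 0.475 in controls (log2 fold change 0.93 ± 0.27 (SE), adjusted p = 0.0404, edgeR). Socs3 in the epileptic sgKcna1 group had 2.35 ± 0.337 CPM (log2 fold change 0.94 against controls, adjusted p = 0.512, edgeR). The unadjusted p was 0.00251 in the epileptic sgLacZ group and 0.00245 in the epileptic sgKcna1 group, each against controls (edgeR). Only the epileptic sgKcna1 group did not overlap with controls, as was so for 1.14% of tested genes. Icam1, an adhesion molecule for leukocytes, had 2.69 ± 1.25 and 0.989 ± 0.373 CPM in the epileptic sgLacZ and control groups (log2 fold change 1.43, adjusted p = 0.0450, edgeR), and 0.74 (adjusted p = 0.0694) with the counts of each strand added. None of the 7 genes passed with sex as a covariate, with unmapped reads as a covariate or in the 11 libraries. With sex as a covariate their log2 fold changes were 0.46 (Rnf31 and Ski), 0.49 (Smad3), 0.56 (Ikbkb), 0.97 (Socs3), 1.07 (Ltbp3) and 1.5 (Icam1). With unmapped reads as a covariate they were lower in Rnf31 (0.28), Ski (0.32), Ikbkb (0.38) and Ltbp3 (0.60), and 0.45, 0.83 and 1.27 in Smad3, Socs3 and Icam1. Each passed in 5 to 9 of the 17 fits that left out 1 library.

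**Figure D4:**
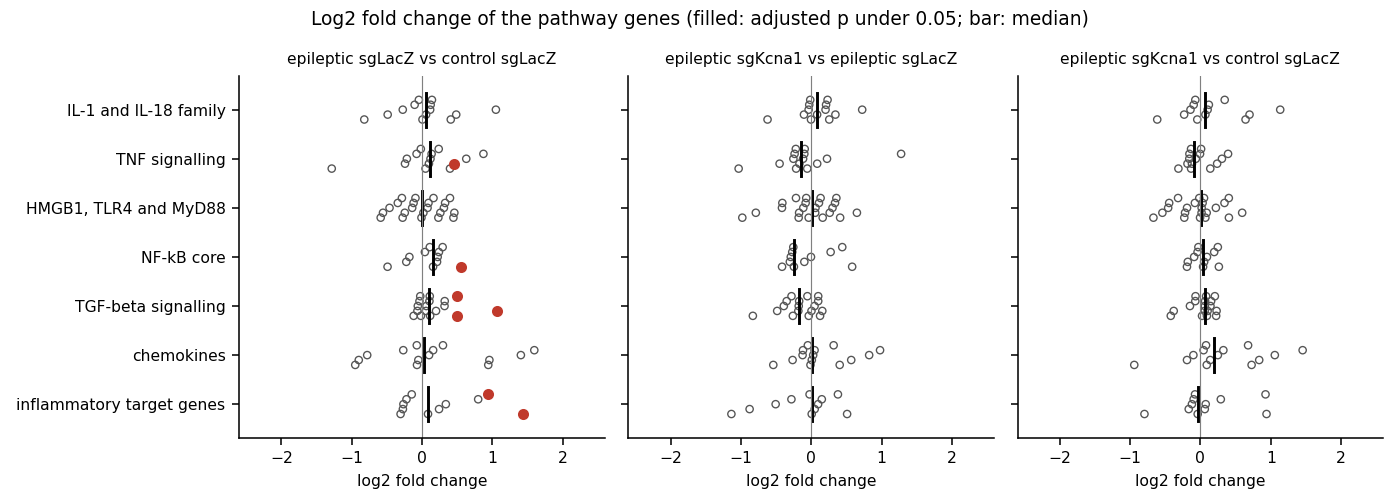
Log2 fold change (horizontal axis) of the tested genes of each of the 7 pathway lists, the 9 genes described above included, in the 3 comparisons, with the median as a bar and genes with an adjusted p under 0.05 filled. The 7 filled genes stand in the left panel, on the side of higher levels in the epileptic sgLacZ group.

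Pathway genes with the smallest p in lists where none passed showed the following. Hmgb2, a relative of Hmgb1, had 7.82 ± 2.99 CPM in the epileptic sgLacZ group and 11.7 ± 2.75 in controls (log2 fold change -0.59, adjusted p = 0.0675, edgeR). Hmgb3 had 23.1 ± 4.38 CPM in the epileptic sgKcna1 group and 17.4 ± 1.69 in the epileptic sgLacZ group (log2 fold change 0.41, adjusted p = 0.213, edgeR). These did not overlap, as was so for 0.483% of tested genes. Ccl5, a chemokine for T cells, had 2.58 ± 1.97 CPM in the epileptic sgLacZ group and 0.852 ± 0.513 in controls (log2 fold change 1.60, adjusted p = 0.133, edgeR). Tgfbr3, a TGF-β coreceptor, had 14.3 ± 3.41 CPM in the epileptic sgKcna1 group and 19.1 ± 1.53 in controls, with log2 fold changes of -0.48 against the epileptic sgLacZ group and -0.42 against controls (adjusted p = 0.213 and 0.664, edgeR).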

How the data were processed

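Polyadenylated RNA of 17 samples of mouse hippocampus was sequenced. The authors aligned the reads to mm10 with STAR 2.7 and deposited raw counts per gene, for either strand and for each strand. The annotation release, trimming and duplicate handling are not given in the sources used here. The labels name an unstranded kit and the study's methods a stranded one. Reverse-strand to forward-strand reads had a ratio of 0.994 to 0.998, so unstranded counts were used.

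Groups came from the labels, which give each sample its own replicate number. No pair of libraries of a group agreed within sampling noise (chi-square of at least 8.67 per degree of freedom). Counts were tested with edgeR 4.0.16 (R 4.3.3, limma 3.58.1): filterByExpr by group, TMM scaling, all 17 libraries and 3 groups in 1 fit without covariates, the two-sided quasi-likelihood F test, Benjamini-Hochberg adjustment over 17615 genes and a threshold of 0.05. The code was tested on simulated data. CPM values are TMM-scaled, and SE was derived from the F statistic. Intervals (95%) use a normal quantile of this SE, so they are somewhat narrower than the F test would give, and they are not adjusted. The floor of 3 reads allows for counting error alone, as PCR copies were not marked. P-values measure the spread between these samples, 1 library each.

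The rule for the 10 genes uses no measured value, but genes and lists were chosen with earlier results of these data known. For each list and comparison, up to 3 genes with the largest change past the threshold and a mean of at least 1 CPM were named, or else the gene with the smallest p, not all of which are printed. Names matched 32620 of 55450 identifiers, 89.7% of tested genes. Coordinates and promoters are RefSeq GRCm38.p6, which is mm10. Lengths are from mm9-based transcripts. Alternatives were DESeq2 1.42.0, RLE scaling, no filter, added strand counts, covariates for sex or unmapped reads, limma voom with sample quality weights, only the groups compared, and leaving out each library. A fit of the 11 libraries that did not hold more than 40 reads of both Xist and Y-linked genes was added after seeing the data, and the kB consensus was widened after a narrower form had no match in these genes.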

Additional observations from a re-analysis of the deposited data

Results flagged for a closer look

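In 5 of 30 groups of values (10 genes in 3 groups) the highest or lowest library stood apart from the others by Dixon's ratio of gap to range. About 1 in 20, or 1.5 of 30, would be flagged for normal values in independent groups. That rate need not hold here, as some genes have few reads and all genes share the same libraries. Tnf had 5.41 CPM in epileptic sgKcna1 replicate 12, and the nearest library had 2.10. Hmgb1 had 382 CPM in the same library, and the nearest had 267. Il1b had 0 CPM there, against 0.176 to 0.278 in the other 5 libraries, where 3 reads in replicate 12 are worth 0.280 CPM. Hmgb1 had 180 CPM in epileptic sgLacZ replicate 4, and the nearest library had 218. Ccl2 had 1.96 CPM in epileptic sgKcna1 replicate 11, and the nearest had 0.524. Replicate 12 had the fewest reads in genes (11839240) and replicate 4 the most (28311328). Whether read depth or quality gave these values was not tested.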

How the results depend on the processing

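No paired analysis was possible because the groups share no replicate numbers. In the epileptic sgLacZ group against controls, 1940 genes and none of the 9 tested members passed with edgeR. The counts of genes were 3686 with DESeq2, 7301 with limma voom (with sample quality weights here and below), 3045 with only these groups in the fit, 516 with the sex covariate, 428 with the unmapped-read covariate, 0 in the 11 libraries (6540 at an unadjusted p under 0.05), and 0 to 5526 with each library left out. Members passing numbered 2 with DESeq2 (Il18 and Tnf), 3 with limma voom (Il18, Tnf and Hmgb1), 2 with only these groups (Tnf and Hmgb1), and 0 to 3 with each library left out: 3 without epileptic sgKcna1 replicate 12, 2 without epileptic sgLacZ replicate 5 and 1 without epileptic sgLacZ replicate 8. Between the epileptic groups 0 genes passed with edgeR (3387 at an unadjusted p under 0.05), 143 with DESeq2, 12 with limma voom, 1 without the filter and 0 to 1508 with each library left out. In the epileptic sgKcna1 group against controls 0 passed (1192 at an unadjusted p under 0.05), 39 with DESeq2, 71 with limma voom, 266 with the unmapped-read covariate and 0 to 14 with each library left out. No member passed in these comparisons under any of the settings run. The cause of these differences was not tested. Of 445 values under the other settings 23 changed sign, as did 30 of 843 with 1 library left out.

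In the epileptic sgLacZ group against controls, Il1r1 went to -0.0044 with DESeq2 and with RLE scaling, -0.0064 with added strand counts, -0.036 with sex, -0.11 with unmapped reads, -0.0031 with limma voom and -0.0035 in the 11 libraries. Tnfrsf1a went to 0.0024 without the filter and 0.025 with unmapped reads, and Tgfb1 to -0.032 with limma voom. Leaving out a library gave -0.043 to 0.059 for Il1r1, -0.074 to 0.038 for Tnfrsf1a and -0.038 to 0.13 for Tgfb1. Between the epileptic groups, Tgfb1 went to -0.018 without the filter, -0.033 with unmapped reads, -0.051 with limma voom and -0.29 in the 11 libraries, and Il1rl1 to -0.017 with limma voom. Leaving out a library gave -0.086 to 0.085 for Tgfb1 and -1.88 to 0.045 for Ccl2. In the epileptic sgKcna1 group against controls, Tnf went to 0.013 with DESeq2, and Hmgb1 to -0.032 with unmapped reads, -0.066 with limma voom and -0.15 in the 11 libraries. Tgfb1 went to -0.084 with limma voom and -0.081 in the 11 libraries, and Ccl2 to -0.17 and -0.15. Leaving out a library gave -0.592 to 0.176 for Tnf, -0.115 to 0.0584 for Hmgb1, -0.0364 to 0.133 for Tgfb1 and -0.936 to 1.04 for Ccl2.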

Other observations

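Beyond the pathway lists, the genes whose level across the 17 libraries was most like that of each tested member were ranked by Spearman's rho on log2 CPM, as a description of libraries that also share depth and group. The 3 given for each member are the highest of all tested genes with a symbol. How high such a rho would be by chance was not computed. Hmgb1 was most like Eny2 (0.966), Klhl9 (0.953) and Fam108b (0.951), and Il18 most like Rpl15 (0.944), Eif4a2 (0.929) and Cdk4 (0.924). Tnf was most like Clec5a (0.882), a receptor of myeloid cells, Gm9803 (0.863) and Id4 (0.853). Ccl2 was most like Unc93b1 (0.880), which escorts Toll-like receptors to endosomes, Cxcl10 (0.855), an interferon-induced chemokine, and Serping1 (0.846), the inhibitor of complement C1. Tnfrsf1a was most like Ctsc (0.831), Mvp (0.826) and Gstt3 (0.824), and Tlr4 most like Ttc26 (0.843), Esyt1 (0.831) and Plat (0.824). Il1r1 was most like Hcrtr1 (0.802), Nhlh1 (0.787) and 3632451O06Rik (0.775), Il1a most like Cbwd1 (0.826), Bloc1s3 (0.784) and Fcrls (0.777), and Tgfb1 most like Wnt8b (0.873), Gng12 (0.853) and Ank2 (0.833).

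Among the chemokine genes, Cxcl10 had 5.84 ± 7.43 CPM (SD, n = 6) in the epileptic sgKcna1 group and 2.16 ± 0.862 CPM (SD, n = 5) in controls (log2 fold change 1.45, adjusted p = 0.766, edgeR). This log2 fold change was 0.39 without epileptic sgKcna1 replicate 11 and 0.52 in the 11 libraries. Ripk1, the kinase recruited to TNFR1, had 1.66 ± 0.861 CPM (SD, n = 6) in the epileptic sgKcna1 group and 3.47 ± 1.20 CPM (SD, n = 6) in the epileptic sgLacZ group (log2 fold change -1.03, adjusted p = 0.216, edgeR), and -0.49 with unmapped reads as a covariate. Tirap, an adaptor of TLR4, did not overlap between the epileptic sgKcna1 group at 2.29 ± 0.404 CPM and controls at 3.34 ± 0.555 CPM (log2 fold change -0.54, adjusted p = 0.674, edgeR). The same was so for 1.14% of tested genes. Counts of each strand added up to 1.272, 1.37 and 1.126 times the unstranded count in Cxcl10, Ripk1 and Tirap, the sign of an overlapping gene, so their values are uncertain.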
